A study of Rattus norvegicus with 15 samples.

Results

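The response of Odora cells to 200 µM zinc gluconate for 6 h was measured against untreated Odora cells by RNA sequencing of total RNA. Odora is a rat cell line of olfactory origin, labelled as olfactory neuron and used here undifferentiated in every group, and zinc gluconate is a zinc salt that has been used in intranasal cold remedies. The comparison took the 3 libraries labelled 200 µM and 6 h and the 3 libraries labelled control, which together are 6 of the 15 libraries of the series. The labels give no incubation time and no vehicle for the controls. The other 9 libraries are labelled 100 µM zinc gluconate for 6, 12 or 24 h, with 3 libraries each, and the 100 µM group at 6 h is used below to set the labelled doses side by side. All genes that passed a filter on low counts were included, 10463 of the 16832 in the deposited table. The libraries held 23.7, 28 and 25.9 M (mega) counts in the controls, 13.7, 15 and 17.2 M at 200 µM, and 35.2, 10.3 and 12.2 M at 100 µM for 6 h. Levels are CPM (counts per mega counts) of the library total scaled by TMM, a factor that brings the bulk of genes to a common level. A floor of 3 counts corresponded to 0.0950 to 0.113 CPM in the controls and 0.202 to 0.250 CPM at 200 µM, which covers counting error only. Ratios are log2 of 200 µM over control with the standard error (SE) of edgeR's quasi-likelihood fit. A gene is called higher or lower where the p-value of that fit, adjusted by the Benjamini-Hochberg method over all 10463 genes, is under 0.05. Nothing in the labels ties the 3 libraries of a group to separate cultures, and the p-values therefore reflect variation among these libraries that may be only technical. In these bulk samples, fewer cells of a type and less RNA per cell cannot be told apart.

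The dose and time of the 200 µM libraries are in doubt. Each of them matched 1 library labelled 100 µM and 24 h almost count for count: the chi-square statistic per degree of freedom, which is near 1 where 2 libraries differ by counting noise alone, was 1.35 to 1.41 for the 3 matched pairs. Other pairs between those groups gave 3.23 to 16.9, pairs within the 200 µM group 3.56 to 14.4, pairs of controls 10.1 to 18.9, and pairs of a 200 µM and a control library 309 to 390. Between the 200 µM and the 24 h groups edgeR called 0 of 10463 genes, with 68 at an unadjusted p under 0.05, and among the 4148 genes over 50 CPM no log2 ratio was larger than 0.16. The series holds no other 200 µM group, so the values below belong to the libraries labelled 200 µM and 6 h and would equally describe those labelled 100 µM and 24 h, which were left out of the fit so that no sample entered the spread more than once.

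**Figure D1:**
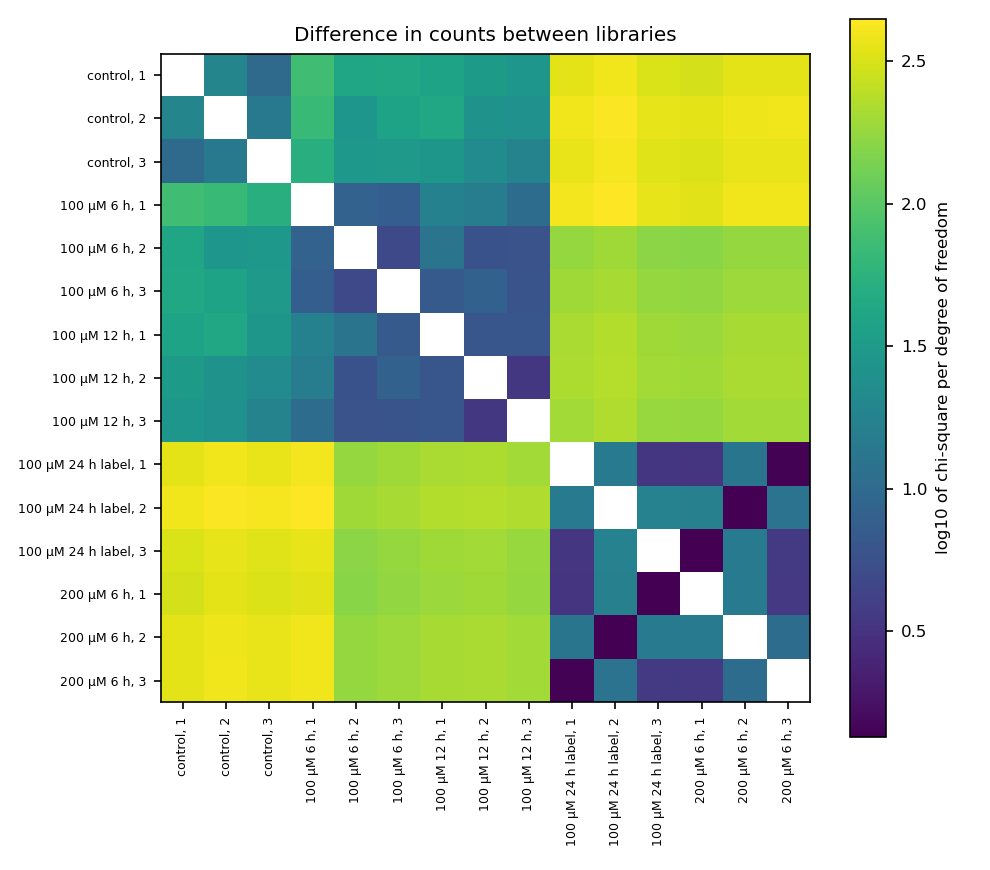
Chi-square per degree of freedom between the counts of each pair of the 15 libraries, as log10 (colour), with libraries ordered by labelled group on both axes. The 3 pairs of a 200 µM and a 24 h library lie at 1.35 to 1.41, below every pair within a labelled group.

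The cells were also checked against markers. Of 22 olfactory lineage markers in the table, Cnga2, Gap43, Stmn2 and Neurog1 were listed at 0 in all 6 libraries, and Omp, the marker of mature olfactory neurons, stood at 0.188, 0.348 and 0.346 CPM in the controls and 0.333, 0.703 and 0.135 CPM at 200 µM. A 0 need not mean a lack of expression, since Rpl36, Qars1, Mcl1 and Pdia6, which most cells use, are also listed at 0 in all 15 libraries. The summed level of the olfactory markers was 539 to 589 CPM in the controls and 519 to 537 CPM at 200 µM, most of it Stmn1, a tubulin-binding protein of many dividing cells. Fibroblast markers summed to 19319 to 23447 CPM and 19123 to 23156 CPM, while sustentacular, glial and leukocyte lists stayed between 14.3 and 23.0 CPM in each group. Heart muscle transcripts moved with the groups: the myosin genes Myh6, Myh7, Myl2 and Myl3 with Actc1 and Mybpc3 summed to 106, 26.7 and 107 CPM in the controls and 0.333, 0.156 and 0.337 CPM at 200 µM. It was 49.4 CPM in replicate 1 of the 100 µM group at 6 h and under 0.4 CPM in the other replicates of that group. Myl2, a heart myosin light chain, had 105, 31 and 133 counts in the controls and 0 in each 200 µM library. The part of these transcripts, which make up a small share of the control counts, in the results below was not tested beyond a fit with a term for the libraries that hold them, whose term rests on the 100 µM library alone.

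Cells hold zinc within narrow limits. When free zinc rises, the zinc finger factor MTF-1 binds metal response elements and switches on metallothioneins, small cysteine-rich proteins that bind the metal, and the exporter Slc30a1 (ZnT1). Zinc in excess also reacts with protein thiols, and the responses known for such metals include heat shock factor 1 (HSF1), which drives chaperone genes, Nrf2, which drives antioxidant genes, and the unfolded protein and integrated stress responses with their factor ATF4.

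The difference between the groups was broad. Of 10463 genes, 6414 (61.3%) were called, 3103 (29.7%) higher and 3311 (31.6%) lower at 200 µM, and the libraries of the 2 groups did not overlap in 6031 of them. Counted over all tested genes, 3202 (30.6%) were higher and 3470 (33.2%) lower without overlap. Log2 ratios of at least 1 in size were reached by 650 genes higher (6.21%) and 600 lower (5.73%), and ratios of at least 2 by 195 and 89. The median SE was 0.09 on the log2 scale. This balance depends on the scaling, and a few genes took a large share of the treated libraries. The 20 most abundant genes of a library held 8.04% to 8.58% of all counts in the controls and 17.3% to 18.6% at 200 µM. Scaled by library totals alone, log2 ratios shift by -0.376 in the median, and 1237 genes are then higher and 6642 lower, so that 15.7% of calls point up instead of 48.4%. The changes below are relative to the bulk of genes, and under library totals the calls of Slc30a4, Slc39a11 and Nppb ended, while Hsf1 and Hsf2 were called lower. Where a gene list is counted below, the counts of higher and lower members under library totals stand beside the main ones. With a term for the libraries that hold heart transcripts 3942 genes were called, 3830 of them among the 6414, and of the genes named below Abcc4, Col3a1, Csf1r, Dusp6, Ebf1, Hspa2, Hspa9, Inhbe, Nfkbia and Nppb were then uncalled.

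**Figure D2:**
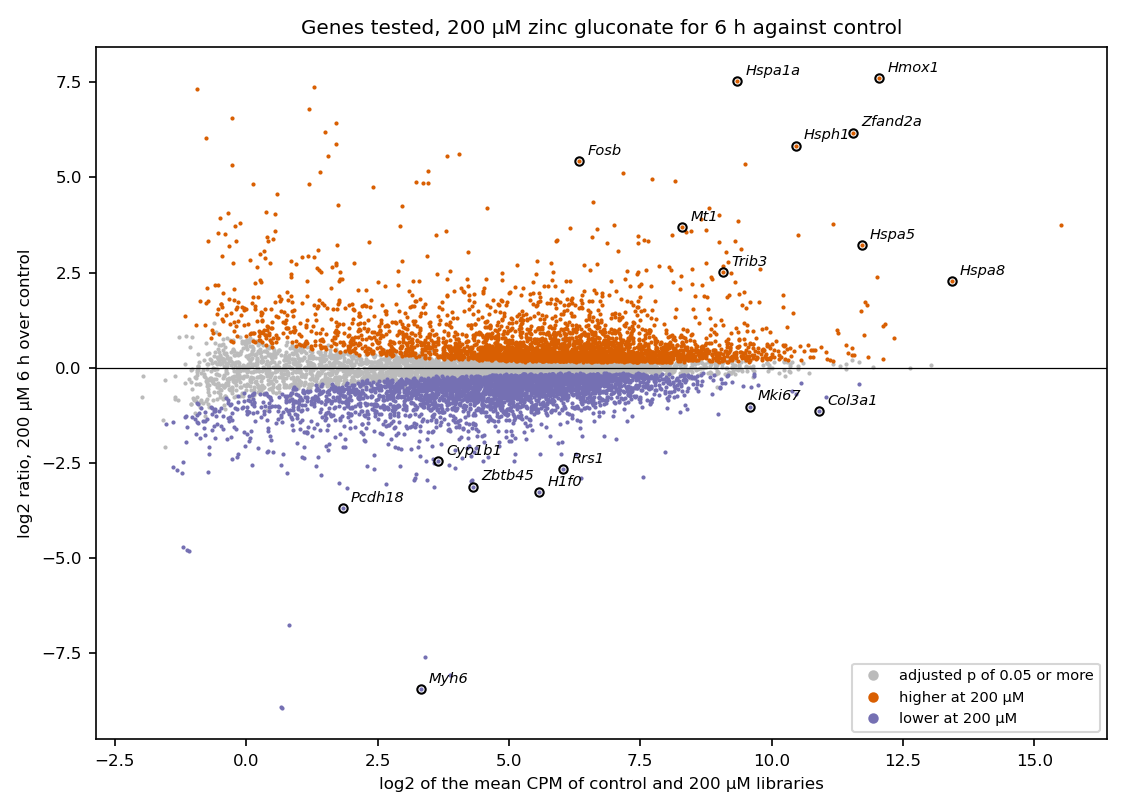
Log2 ratio of 200 µM over control against the log2 mean CPM of the 6 libraries for the 10463 genes tested, with genes higher at 200 µM in orange, lower ones in purple and uncalled ones in grey. The highest ratios are those of Hmox1 and Hspa1a, and the points lowest on the plot are heart genes at or near 0 at 200 µM, whose fitted ratio depends on the prior count.

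The metallothioneins and the exporter Slc30a1 were higher at 200 µM than in the controls and lower than at 100 µM. The 300-base promoter windows (250 bases before to 50 after the start, RefSeq, assembly GRCr8, which is not the build of the counts) of the metallothioneins and of Slc30a1 are shown because they carry metal response elements. Capitals mark matches to TGCACNC or TGCGCNC on either strand, and overlapping matches run together.
Mt1, chr19:10832926-10833225, minus strand: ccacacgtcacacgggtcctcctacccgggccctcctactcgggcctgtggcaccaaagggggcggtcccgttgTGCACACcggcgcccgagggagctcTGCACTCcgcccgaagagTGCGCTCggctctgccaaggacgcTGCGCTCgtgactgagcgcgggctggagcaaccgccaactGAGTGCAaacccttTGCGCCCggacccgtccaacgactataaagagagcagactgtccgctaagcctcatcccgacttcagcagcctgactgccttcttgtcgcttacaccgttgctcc
Mt2A, chr19:10838659-10838958, minus strand: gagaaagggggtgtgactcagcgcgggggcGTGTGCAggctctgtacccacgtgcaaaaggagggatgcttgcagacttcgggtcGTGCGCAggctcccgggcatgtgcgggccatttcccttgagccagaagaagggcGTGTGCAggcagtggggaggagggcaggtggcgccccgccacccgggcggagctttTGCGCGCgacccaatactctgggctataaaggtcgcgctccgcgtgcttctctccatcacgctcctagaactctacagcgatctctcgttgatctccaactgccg
Slc30a1, chr13:106021769-106022068, plus strand: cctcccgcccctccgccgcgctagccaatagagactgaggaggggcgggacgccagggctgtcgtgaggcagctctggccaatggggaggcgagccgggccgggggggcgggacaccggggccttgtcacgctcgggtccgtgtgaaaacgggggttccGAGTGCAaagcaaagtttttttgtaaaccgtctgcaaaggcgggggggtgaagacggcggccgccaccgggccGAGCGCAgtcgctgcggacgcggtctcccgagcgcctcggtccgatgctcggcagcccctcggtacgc
The Mt1 window held 6 matches, that of Mt2A 4 and that of Slc30a1 2. At least 1 match was present in 36.9% of the 8534 tested genes with a promoter in the table, and of the 3146 such genes 5.59% rose by at least 1 on the log2 scale, beside 5.99% of all 8534. Among the 69 genes with at least 4 matches, 3 (4.35%) did so, and the median log2 ratio of the 69 was -0.14.

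Mt1, a metallothionein, was at 48.7, 49.2 and 36.8 CPM in the controls and at 543, 684 and 527 CPM at 200 µM. This was 13-fold higher, a log2 ratio of 3.70 ± 0.14 (edgeR adjusted p = 4.69e-12), with every treated library above every control. Mt2A, its neighbour on the chromosome, rose from 88.0, 79.7 and 65.2 CPM to 422, 521 and 445 CPM, 5.96-fold (2.58 ± 0.11). In both genes the 200 µM libraries lay below all 3 libraries of 100 µM at 6 h, which were at 1438, 1479 and 1339 CPM for Mt1 and 1202, 1265 and 1117 CPM for Mt2A. The log2 ratio of 200 over 100 µM was -1.28 ± 0.13 and -1.37 ± 0.10, both called in that comparison, in which 54.4% of all genes were called and which shares the 200 µM libraries with the comparison with control. Log2 ratios of at least 1 in size to 100 µM were reached by 9.78% of all genes, 5.26% higher and 4.52% lower. Mt1 and Mt2A are similar in sequence, and how the authors counted reads that match both is not given in the sources used here. Slc30a1, which exports zinc across the plasma membrane, rose from 22.2, 20.9 and 23.9 CPM to 73.1, 67.5 and 68.6 CPM (1.64 ± 0.09), and again stood higher at 100 µM, with 98.8, 80.3 and 86.6 CPM (200 over 100 µM, -0.35 ± 0.09). The other zinc transporters moved little. Of 7 exporters tested 4 were called higher and 1 lower (2 and 1 with the heart transcript term, 1 and 3 under library totals), and Slc30a4, which loads zinc into vesicles, gave 0.41 ± 0.11. Of 10 importers 1 was called higher, Slc39a11 (0.52 ± 0.09), and 4 lower, among them Slc39a3 at -0.58 ± 0.11, and under library totals 0 were higher and 9 lower. The median of the exporters, 0.25, turns to -0.12 under library totals. Beside these counts stand 29.7% of all genes higher than control and 31.6% lower.

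**Figure D3:**
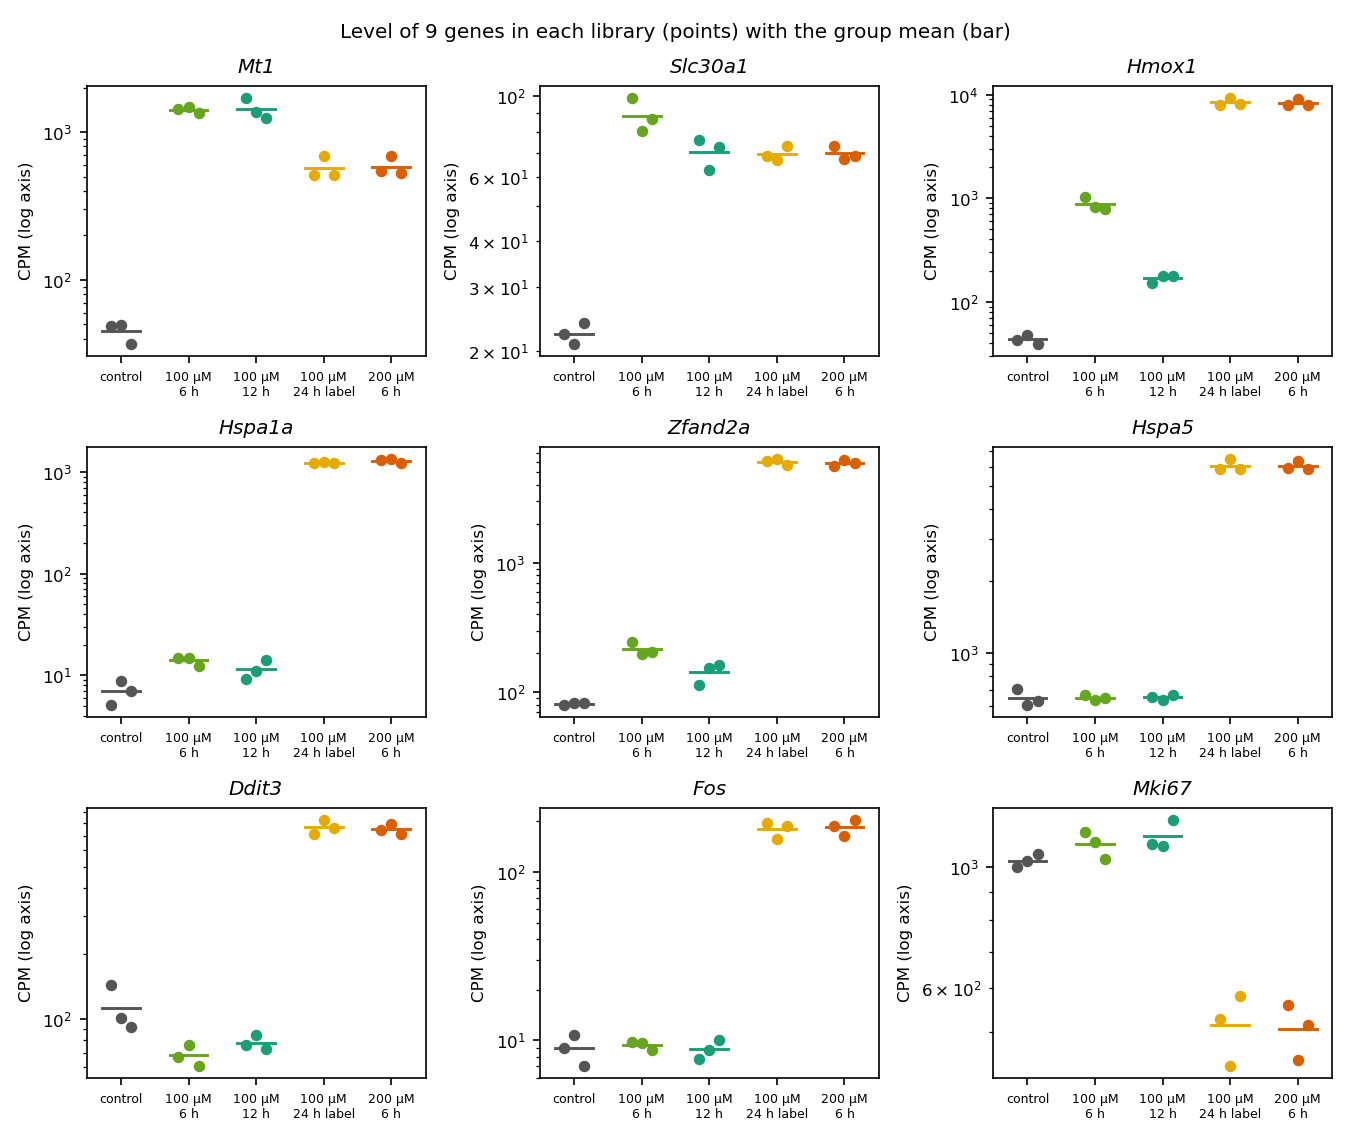
CPM per library on a log axis for Mt1, Slc30a1, Hmox1, Hspa1a, Zfand2a, Hspa5, Ddit3, Fos and Mki67 in the 5 labelled groups, with points for libraries and a bar for the group mean. For Mt1 and Slc30a1 the 200 µM libraries lie between the controls and the 100 µM libraries at 6 h, for Mki67 below both, and for the other genes above both.

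Heat shock genes were mostly higher than in either other group. Of 26 cytosolic chaperones, co-chaperones and heat shock factors tested, 22 were higher than control, 1 lower and 3 uncalled, with a median log2 ratio of 1.54 beside -0.02 for all genes (17 higher and 4 lower under library totals). Against 100 µM at 6 h, where 26.7% of all genes were higher and 27.7% lower, 23 were higher and 1 lower. Promoter windows are shown for Hsph1, Hspa8 and Hspe1, whose capitals mark heat shock elements, here 3 units of GAA or its inverse TTC in alternation with NN between them, on either strand.
Hsph1, chr12:10427118-10427417, plus strand: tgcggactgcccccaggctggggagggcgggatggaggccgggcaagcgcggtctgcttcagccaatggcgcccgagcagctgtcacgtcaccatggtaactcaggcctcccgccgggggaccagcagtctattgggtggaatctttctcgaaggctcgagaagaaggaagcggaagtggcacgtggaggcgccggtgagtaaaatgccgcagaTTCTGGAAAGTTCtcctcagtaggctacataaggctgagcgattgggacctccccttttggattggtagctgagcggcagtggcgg
Hspa8, chr8:50080264-50080563, plus strand: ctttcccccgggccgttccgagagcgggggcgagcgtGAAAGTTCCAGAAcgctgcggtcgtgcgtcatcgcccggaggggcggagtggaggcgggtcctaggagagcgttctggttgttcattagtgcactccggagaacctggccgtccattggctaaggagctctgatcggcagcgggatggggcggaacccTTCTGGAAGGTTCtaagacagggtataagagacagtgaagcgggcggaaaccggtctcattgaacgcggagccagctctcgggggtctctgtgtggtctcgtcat
Hspe1, chr9:64084077-64084376, plus strand: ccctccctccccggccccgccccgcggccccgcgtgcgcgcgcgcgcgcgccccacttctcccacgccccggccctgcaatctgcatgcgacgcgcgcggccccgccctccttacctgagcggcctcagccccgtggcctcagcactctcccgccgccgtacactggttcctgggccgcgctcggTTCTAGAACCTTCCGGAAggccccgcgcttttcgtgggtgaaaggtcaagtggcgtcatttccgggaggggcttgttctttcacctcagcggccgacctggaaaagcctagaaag
The matches in the Hspa8 and Hspe1 windows are 2 each, those of Hspe1 overlapping, and the Hspe1 window is shared with Hspd1 on the other strand. Such an element was found in 0.457% of the 8534 tested genes with a promoter in the table, which is 39 genes. Of these, 10 (25.6%) rose by at least 1 on the log2 scale, beside 5.99% of all 8534, and the median log2 ratio of the 39 was 0.14. The 10 count Hspd1 and Hspe1 separately. In the heat shock list 4 of 21 windows held the element. Matches to TGACNNNGC, an antioxidant response element, were found in 1268 tested genes, of which 6.62% rose by at least 1. Matches to TGATGNAA, an ATF4 element, were found in 171, of which 9.36% did.

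Hspa1a, the stress-inducible Hsp70, was at 5.08, 8.77 and 7.06 CPM in the controls, 14.9, 14.8 and 12.2 CPM at 100 µM for 6 h and 1306, 1333 and 1232 CPM at 200 µM. Its log2 ratio to control was 7.52 ± 0.17 (edgeR adjusted p = 6.23e-15), and that to 100 µM 6.52 ± 0.16. The rat genome holds a near-identical copy of Hspa1a, so reads may be divided between them. Hsph1, the Hsp110 nucleotide exchange factor, rose from 50, 45.7 and 49.7 CPM to 2678, 2498 and 3098 CPM (5.83 ± 0.11). The groups were far apart in both genes and did not overlap. Hspa8, the constitutive Hsc70, was already abundant at 3631, 3884 and 3779.9 CPM and reached 17853, 18465 and 18284 CPM (2.27 ± 0.07). The co-chaperones and small heat shock proteins followed, with Bag3 at 4 ± 0.10, Hspb1 (Hsp27) at 3.33 ± 0.11, Dnajb1 (Hsp40) at 3.12 ± 0.08 and Hspb8 at 2.48 ± 0.09. Among Hsp90 genes, Hsp90aa1 gave 2.38 ± 0.15 and Hsp90ab1 1.66 ± 0.07. The 1 member that fell was Hspa2, the testis-rich Hsp70, at -0.75 ± 0.14, and the factors Hsf1 (0.01 ± 0.08) and Hsf2 (-0.07 ± 0.09) were not called. In mitochondria, the chaperonin pair Hspd1 (1.73 ± 0.09) and Hspe1 (1.39 ± 0.08) rose, and Dnaja3 (-0.63 ± 0.07) and Hspa9 (-0.38 ± 0.11) fell. In that list 2 of 7 were higher and 3 lower (2 and 5 under library totals), beside 29.7% and 31.6% of all genes.

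Many genes of protein disposal were higher as well. Zfand2a (AIRAP), an arsenite-inducible proteasome-associated zinc finger protein, went from 79.9, 83.2 and 82.7 CPM to 5627, 6176 and 5928 CPM (6.17 ± 0.13), with 243, 199 and 204 CPM at 100 µM. The 200 µM libraries lay far above both other groups. Ubb, a polyubiquitin gene whose repeats may share reads with related genes, gave 1.74 ± 0.06. Of 12 ubiquitin and Zfand genes 9 were higher and 1 lower, with a median of 0.70 (7 and 4 under library totals). The proteasome moved less but together, with 28 of 34 subunit and assembly genes higher, 1 lower and a median of 0.34, which is -0.03 under library totals. There 3 were higher and 11 lower, and with the heart transcript term 16 were higher and 0 lower. Sqstm1 (p62), a cargo receptor of autophagy, was at 1.91 ± 0.09 and Gabarapl1, an Atg8 family member of autophagosomes, at 1.5 ± 0.09, in an autophagy and lysosome list with 16 of 29 higher and 2 lower. The median of that list, 0.25, turns to -0.13 under library totals, where 7 members were higher and 12 lower, and 10 were higher and 1 lower with the heart transcript term.

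**Figure D4:**
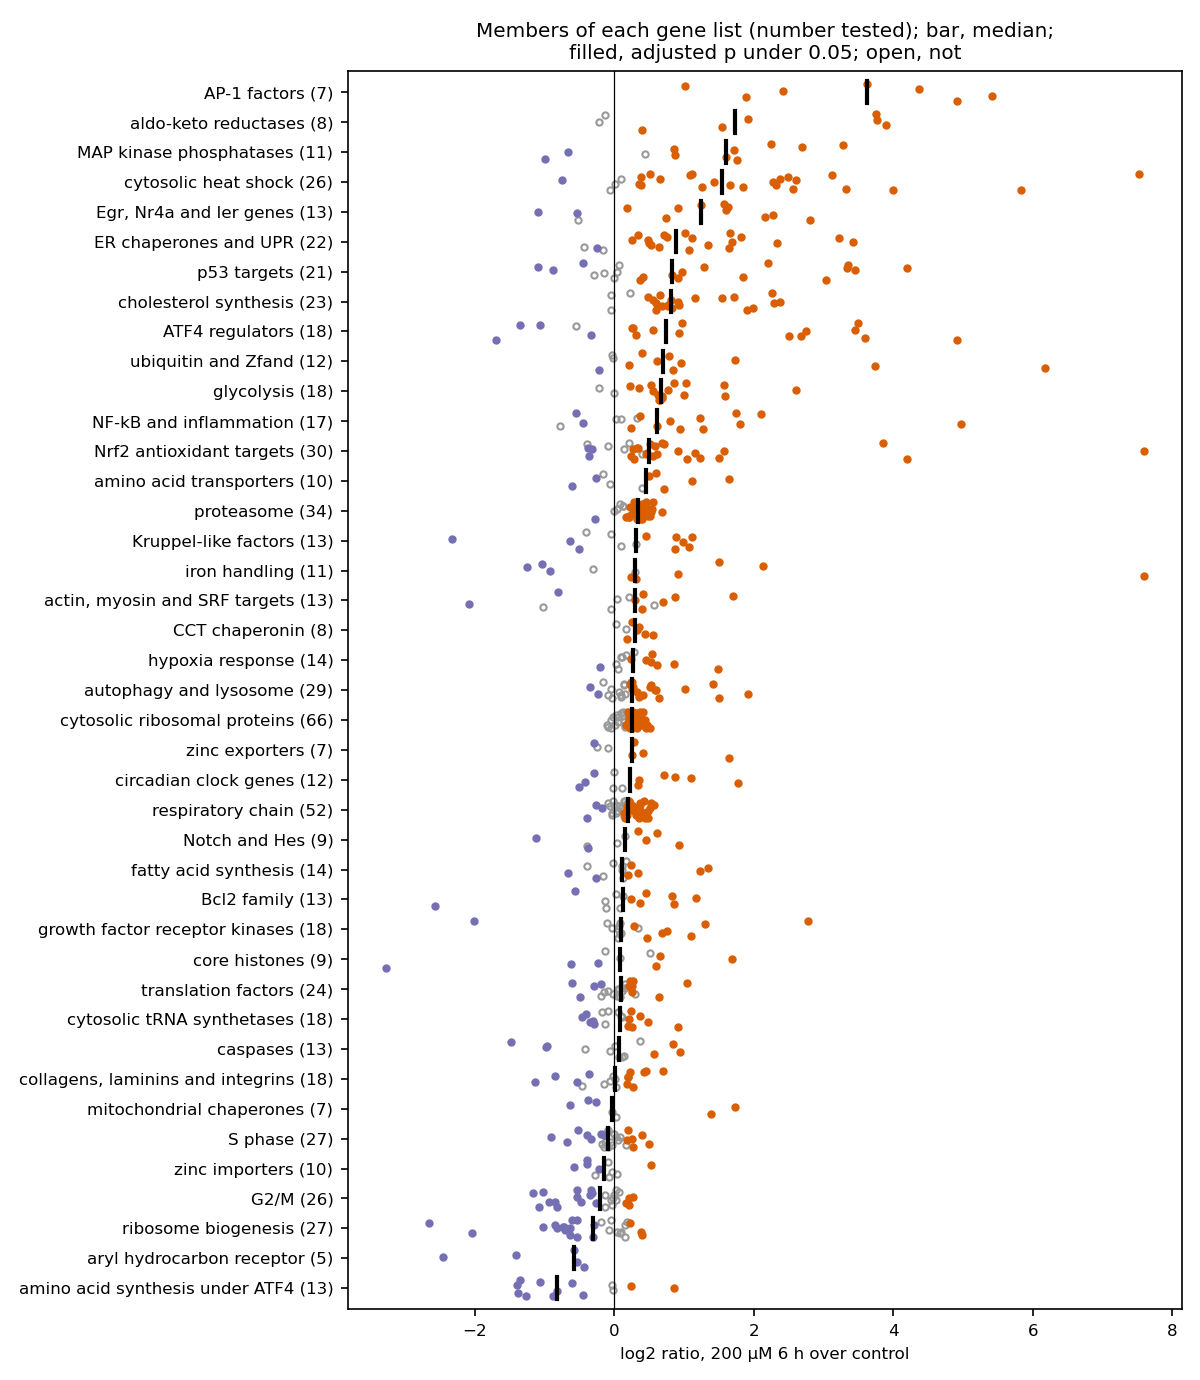
Log2 ratio of 200 µM over control for the members of each gene list with at least 5 tested genes, filled where the adjusted p is under 0.05, with a bar at the list median. Heat shock, AP-1, aldo-keto reductase and MAP kinase phosphatase members lie mostly to the right, and aryl hydrocarbon receptor and amino acid synthesis members mostly to the left.

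Many antioxidant genes under Nrf2 were higher at 200 µM than in the controls. Hmox1 (heme oxygenase 1), which degrades heme, was at 42.4, 48.3 and 39.1 CPM in the controls, 1020.4, 816 and 789 CPM at 100 µM for 6 h and 8016, 9137 and 7994 CPM at 200 µM. Its log2 ratio to control was 7.6 ± 0.14 (edgeR adjusted p = 5.92e-17), and to 100 µM 3.26 ± 0.11, and the 3 groups did not overlap. Of 30 Nrf2 targets tested, 22 were higher than control, 3 lower and 5 uncalled, with a median of 0.49. With the heart transcript term 17 were higher and 1 lower, and under library totals 12 were higher and 6 lower, with a median of 0.12. Against 100 µM 11 were higher, 3 lower and 16 uncalled. Srxn1 (sulfiredoxin), which restores oxidised peroxiredoxins, went from 84.1, 86.6 and 84.2 CPM to 1217, 1214 and 1238 CPM (3.85 ± 0.08). Osgin1, an oxidative stress-induced growth inhibitor, gave 4.19 ± 0.16, the thioredoxin reductase Txnrd1 1.58 ± 0.08, the quinone reductase Nqo1 1.15 ± 0.07 and Gclm, the modifier subunit of glutathione synthesis, 1.04 ± 0.09. Abcc4, an efflux pump, fell (-0.38 ± 0.08). Aldo-keto reductases, which reduce reactive aldehydes, rose in 6 of 8 cases with a median of 1.72 (5 higher and 2 lower under library totals). Among them Akr1b10 (3.90 ± 0.12), Akr1b8 (3.77 ± 0.12) and Akr1b7 (3.76 ± 0.12) are close relatives that may share reads, and Akr1b1 gave 1.91 ± 0.08. In iron handling, the exporter Slc40a1 (ferroportin) rose (2.14 ± 0.20), and Ireb2, an iron regulatory protein (-1.03 ± 0.08), and Ncoa4, the receptor that sends ferritin to autophagy (-0.93 ± 0.06), fell.

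Genes of the unfolded protein response of the endoplasmic reticulum were mostly higher at 200 µM than in either other group. Hspa5 (BiP), the main chaperone of that compartment, was at 706, 605 and 629.6 CPM in the controls, 667, 634 and 645 CPM at 100 µM and 5934, 6375 and 5869 CPM at 200 µM. The log2 ratio was 3.23 ± 0.07 to control and 3.22 ± 0.07 to 100 µM. Every 200 µM library lay above all libraries of control and of 100 µM at 6 h. Of 22 genes of this list 19 were higher than control and 1 lower, with a median of 0.88 (14 and 3 under library totals), and 20 were higher than at 100 µM. Dnajb9 (ERdj4) gave 3.42 ± 0.14, Herpud1, which acts in degradation from that compartment, 2.34 ± 0.12, the sensor Ern1 (IRE1) 1.81 ± 0.10, the secreted survival factor Manf 1.66 ± 0.06 and Calr (calreticulin) 1.11 ± 0.07.

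The ATF4 genes did not all move one way. Ddit3 (CHOP), a factor downstream of ATF4, was at 144, 101 and 92.3 CPM in the controls, 66.8, 76.2 and 60.7 CPM at 100 µM and 746, 792 and 714 CPM at 200 µM. Its log2 ratio was 2.74 ± 0.13 to control (edgeR adjusted p = 1.19e-10) and 3.47 ± 0.14 to 100 µM. The 200 µM libraries did not overlap those of control or of 100 µM at 6 h. Atf3, a stress-induced partner of ATF4, went from 24.2, 16.1 and 15.4 CPM to 509.5, 581 and 576 CPM (4.91 ± 0.15). Among 18 regulators and stress effectors of this response 13 were higher, 4 lower and 1 uncalled, with a median of 0.75 (9 and 3 with the heart transcript term, 8 and 5 under library totals), and all 18 were higher than at 100 µM. Ddit4 (REDD1), an mTORC1 inhibitor, gave 3.59 ± 0.09, Ppp1r15a (GADD34), which restores translation, 3.50 ± 0.12, and Sesn2 (sestrin 2) 3.46 ± 0.08. Trib3, a pseudokinase induced by CHOP, was at 212, 145 and 129 CPM in the controls, 37.6, 40.1 and 38.4 CPM at 100 µM and 841, 1011 and 897 CPM at 200 µM. It lay below control in the libraries labelled 100 µM and 6 h and above it in those labelled 200 µM (2.50 ± 0.14 to control, 4.57 ± 0.16 to 100 µM). Cth, the cystathionine gamma-lyase that makes cysteine (-1.36 ± 0.22), Inhbe, an activin subunit (-1.70 ± 0.36), and Vldlr, a lipoprotein receptor (-1.06 ± 0.08), were below control.

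Genes of amino acid synthesis under ATF4 were lower than control in 9 of 13 cases and higher in 2, with a median of -0.83 (11 and 1 under library totals). Asns (asparagine synthetase) was at 276, 202 and 207 CPM in the controls, 60.3, 56.3 and 61.9 CPM at 100 µM and 123, 138 and 125 CPM at 200 µM. The log2 ratio to control was -0.83 ± 0.10 and that to 100 µM 1.11 ± 0.10, so the 200 µM libraries lay between the other groups and overlapped neither. Aldh1l2 and Mthfd1l, enzymes of mitochondrial folate metabolism, gave -1.40 ± 0.07 and -1.07 ± 0.08, Aldh18a1, which starts proline synthesis, -1.27 ± 0.07, and Psat1 and Phgdh of serine synthesis -0.61 ± 0.07 and -0.45 ± 0.09. Mthfd2, another mitochondrial folate enzyme, was higher (0.86 ± 0.08). Against 100 µM, 8 of the 13 were higher and 2 lower, with a median of 0.36. Among the amino acid transporters 5 of 10 were higher and 2 lower than control, 6 and 0 with the heart transcript term, and 4 and 4 under library totals. Slc3a2, the heavy chain shared by several transporters, gave 1.64 ± 0.08 and the arginine and lysine carrier Slc7a1 1.12 ± 0.07. Of 18 cytosolic tRNA synthetases 7 were higher and 5 lower than control, beside 29.7% and 31.6% of all genes. Against 100 µM, where 26.7% of all genes were higher, 15 of the synthetases were. Their median to control, 0.08, turns to -0.30 under library totals, where 1 was higher and 13 lower. With the heart transcript term 1 was higher and 3 lower, and without control replicate 2 the higher ones were 3.

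**Figure D5:**
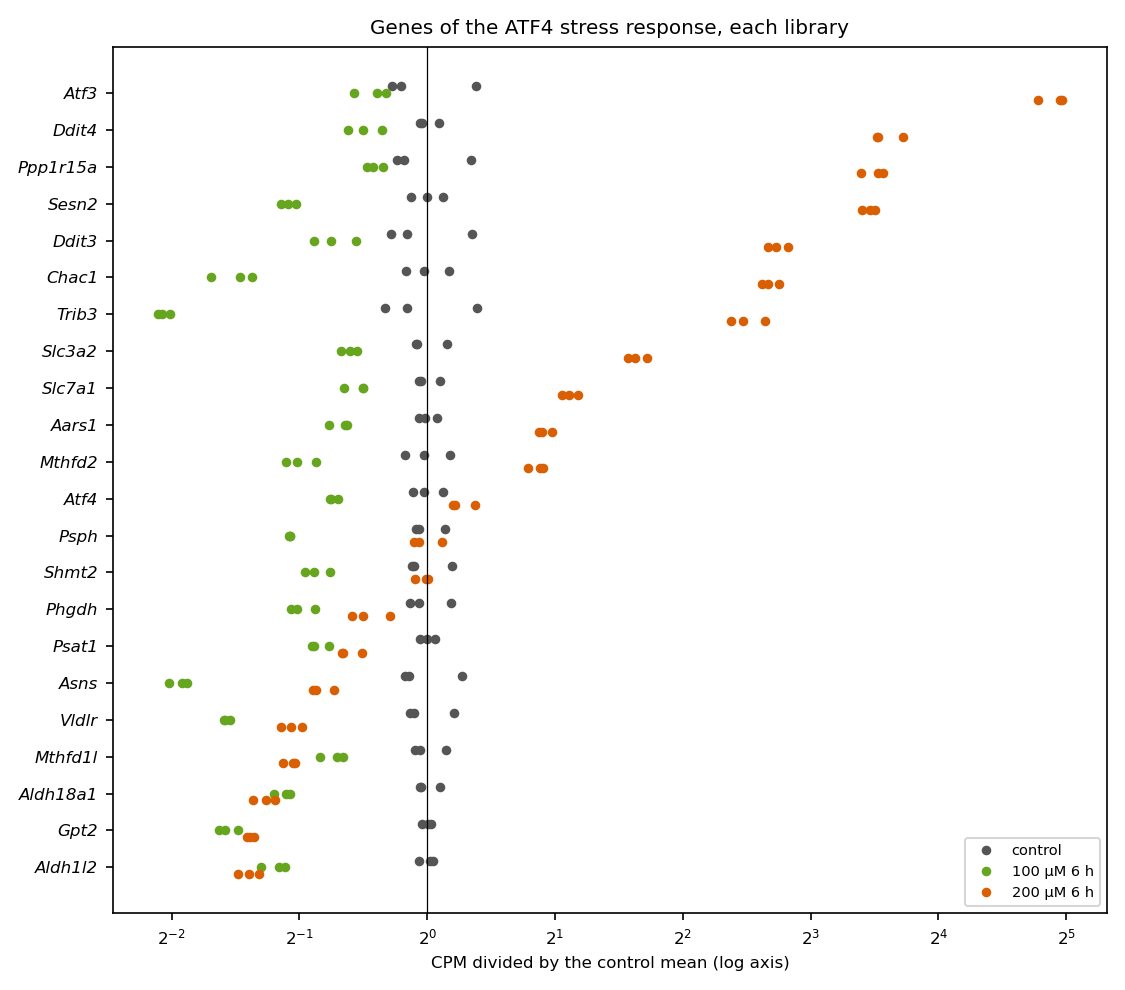
CPM divided by the mean of the controls, on a log axis, for 22 genes of the ATF4 response in each control, 100 µM 6 h and 200 µM 6 h library. Ddit3, Atf3 and Trib3 lie above control at 200 µM, and Asns, Psat1 and Phgdh lie below control in both zinc groups, lowest at 100 µM.

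Most immediate early genes were higher at 200 µM. Fos, which forms the AP-1 factor with Jun, was at 9.03, 10.8 and 7.03 CPM in the controls, 9.72, 9.67 and 8.79 CPM at 100 µM and 189, 163 and 203 CPM at 200 µM. The log2 ratio was 4.36 ± 0.13 to control and 4.29 ± 0.13 to 100 µM, and the control and 100 µM libraries lay in the same range. All 7 AP-1 genes tested were higher than control under both scalings, with a median of 3.63, and Fosb was highest, going from 2.97, 3.99 and 4.02 CPM to 155, 142 and 176 CPM (5.42 ± 0.14). Jun gave 2.42 ± 0.07, Junb 1.89 ± 0.09 and Fosl1 3.63 ± 0.11. Of 13 other early genes of the Egr, Nr4a and Ier families 10 were higher and 2 lower (9 and 4 under library totals), with Arc, a neuronal activity gene, at 2.81 ± 0.18, Egr2 at 2.27 ± 0.16 and Ier5l, which fell, at -1.09 ± 0.11. The dual-specificity phosphatases that switch off MAP kinases were higher in 8 of 11 cases under both scalings, led by Dusp5 at 3.29 ± 0.08 and Dusp8 at 2.69 ± 0.11, and Dusp6 and Dusp7 fell (-0.66 ± 0.11 and -0.99 ± 0.09). Among NF-kB and inflammatory genes 11 of 17 were higher and 2 lower (8 and 4 under library totals). Nfkbiz, an atypical IkB protein that steers NF-kB targets, went from 14.2, 13.9 and 10.9 CPM to 406, 386 and 429 CPM (4.97 ± 0.11), and Ptgs2 (cyclooxygenase 2) gave 1.74 ± 0.08, while Nfkbia (IkB alpha) fell (-0.44 ± 0.11).

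Several cell cycle inhibitors of the p53 pathway rose. Cdkn1a (p21), which blocks cyclin-dependent kinases, was at 155, 106 and 119.6 CPM in the controls, 93.5, 88.6 and 104 CPM at 100 µM and 556, 584 and 616 CPM at 200 µM. Its log2 ratio was 2.21 ± 0.11 to control (edgeR adjusted p = 5.79e-11) and 2.62 ± 0.11 to 100 µM. The 200 µM libraries stood above all libraries of control and of 100 µM at 6 h. Of 21 p53 targets 13 were higher, 3 lower and 5 uncalled, with a median of 0.83 (11 and 7 under library totals). Btg2, an antiproliferative protein, went from 52.7, 42.9 and 43.5 CPM to 801, 758 and 1002 CPM (4.20 ± 0.13). Gadd45b, a stress sensor protein, gave 3.35 ± 0.12, the polo-like kinases Plk3 and Plk2 3.34 ± 0.10 and 3.04 ± 0.15, and the ubiquitin ligase Mdm2 0.92 ± 0.11. Zmat3, an RNA-binding zinc finger protein (-1.09 ± 0.12), and the death receptor Fas (-0.88 ± 0.24) fell. In the Bcl2 family 6 of 13 were higher and 2 lower, but 3 and 7 under library totals, where the median turns from 0.12 to -0.25. Members include the survival protein Bcl2l1 (Bcl-xL) at 1.16 ± 0.08, the death-promoting Bcl2l11 (Bim) and Pmaip1 (Noxa) at 0.86 ± 0.20 and 0.83 ± 0.15, and Bmf, also death-promoting, at -2.58 ± 0.32. Caspases and their inhibitors were divided, with 3 of 13 higher and 3 lower, beside 29.7% and 31.6% of all genes. Without 200 µM replicate 2, 5 were higher, and under library totals 2 were higher and 9 lower. Casp2, an initiator caspase, gave -0.98 ± 0.08.

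Many genes of mitosis and of ribosome assembly were lower at 200 µM. Mki67, the Ki-67 protein of cycling cells, was at 1002, 1025 and 1056 CPM in the controls, 1159, 1112 and 1034 CPM at 100 µM and 559, 444 and 515 CPM at 200 µM. The log2 ratio was -1.02 ± 0.08 to control and -1.12 ± 0.08 to 100 µM. All 200 µM libraries lay below those of control and of 100 µM at 6 h. Of 26 G2/M genes 13 were lower, 4 higher and 9 uncalled, with a median of -0.20 (24 lower and 0 higher under library totals), and the 4 higher calls were 0 with the heart transcript term and 2 in the fit of the 6 libraries alone, as well as without control replicate 1, control replicate 2, 200 µM replicate 1 or 200 µM replicate 2. Plk1, a mitotic kinase, gave -1.17 ± 0.08, Top2a, a topoisomerase of dividing cells, -1.08 ± 0.07 and the kinesin Kif11 -0.93 ± 0.08. Of 27 S phase genes 6 were higher and 7 lower, beside 29.7% and 31.6% of all genes. The counts were 2 and 4 with the heart transcript term, and 0 and 23 under library totals. Rrs1, a ribosome assembly factor, fell from 126, 103 and 108 CPM to 18.5, 17.4 and 17.5 CPM (-2.66 ± 0.10). It led a list of 27 ribosome biogenesis genes of which 15 were lower and 3 higher (21 and 0 under library totals), with Polr1b and Polr1a, subunits of RNA polymerase I, at -2.04 ± 0.10 and -1.02 ± 0.08. With the heart transcript term 14 were lower and 0 higher, and with the replicate number as a block 5 were higher. The ribosomal proteins themselves were higher in 49 of 66 cases and lower in 0, with a small median of 0.25 that turns to -0.12 under library totals, where 0 were higher and 28 lower, and 19 were higher with the heart transcript term. H1f0, a linker histone, fell from 85.4, 89.0 and 84.7 CPM to 8.57, 8.82 and 9.30 CPM (-3.28 ± 0.12), which put it among the 12 lowest ratios.

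Most genes of sterol synthesis and glycolysis were higher at 200 µM. Of 23 genes of cholesterol synthesis and uptake 20 were higher, 0 lower and 3 uncalled, with a median of 0.81 (19 and 2 under library totals). Idi1, an isomerase of that route, was at 37.7, 36.4 and 51.7 CPM in the controls and 242, 162 and 209 CPM at 200 µM (2.28 ± 0.14), with no overlap. Msmo1, a later enzyme, gave 2.26 ± 0.09, and Insig1, which restrains the SREBP pathway, 1.90 ± 0.10. Slc2a1 (GLUT1), a glucose transporter, rose from 103, 99.3 and 102 CPM to 592, 638 and 619.5 CPM (2.60 ± 0.09), and 16 of 18 glycolysis genes were higher and 0 lower, with a median of 0.67 (12 and 2 under library totals). Hk2 (hexokinase 2) gave 1.58 ± 0.11 and Eno1 (enolase 1) 1.00 ± 0.08. The hypoxia list was less uniform, with 7 of 14 higher and 1 lower and Vegfa at 0.85 ± 0.10. Its median of 0.27 turns to -0.11 under library totals, where 4 were higher and 3 lower. The 5 genes of the aryl hydrocarbon receptor list were all lower than control, with a median of -0.58, 5 lower under library totals, and 3 lower with the heart transcript term. Cyp1b1, a cytochrome P450 induced by that receptor, fell from 23.1, 20.9 and 19.9 CPM to 4.16, 3.20 and 4.25 CPM (-2.45 ± 0.14), and Ahrr, the receptor's repressor, gave -1.41 ± 0.09.

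The other genes at the ends of the ranking were of mixed function. Among the 12 highest ratios, several started from near silence. Sorl1, a sorting receptor, had 1, 3 and 2 counts in the controls and 93, 65 and 97 counts at 200 µM. Cd300lb, a surface receptor of myeloid cells, had 0, 2 and 0 counts against 63, 50 and 79. Leukocyte markers summed to 17.9 to 23.0 CPM in the controls and 19.2 to 21.0 CPM at 200 µM. Of the 3 tested, Csf1r was higher (1.43 ± 0.35), 1 was lower, at -0.32, and 1 was uncalled. Under library totals 1 was higher and 1 lower, and with the heart transcript term 0 were higher and 0 lower. The part of such cells was not tested. Stmn4, a neuronal stathmin, had 2, 1 and 6 counts in the controls and 89, 68 and 98 counts at 200 µM. Pmepa1, a feedback inhibitor of TGF-beta signalling, went from 0.828, 0.380 and 0.554 CPM to 29.1, 31.0 and 22.5 CPM (5.56 ± 0.31). In each of these genes every treated library lay above every control.

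At the low end, 6 of the 12 lowest ratios belonged to heart genes. The remaining ones included Pcdh18, a protocadherin, at 5.8, 7.22 and 6.75 CPM in the controls and 0.665, 0.468 and 0.405 CPM at 200 µM (-3.69 ± 0.23). Zbtb45, a zinc finger protein, fell from 35.3, 36 and 35.6 CPM to 3.83, 4.68 and 3.78 CPM (-3.12 ± 0.12), and Ppp1r3c, which targets a phosphatase to glycogen, from 19.2, 26.1 and 18.8 CPM to 2.74, 2.11 and 2.49 CPM (-3.13 ± 0.25). The groups were apart in all 3. Fibroblast and matrix genes were divided. Of 13 fibroblast markers 3 were higher and 6 lower, beside 29.7% and 31.6% of all genes. Under library totals 0 were higher and 11 lower, and the 3 higher calls were 0 with the heart transcript term and 1 without control replicate 1. Twist1, a mesenchymal transcription factor, gave -1.80 ± 0.11 and Pdgfra, a growth factor receptor of mesenchymal cells, -2.01 ± 0.30. Col3a1, a fibrillar collagen, was at 2179, 3435 and 2295 CPM in the controls and 1028, 1500.3 and 1081 CPM at 200 µM (-1.13 ± 0.29), the largest fall in CPM of any gene. Olfactory lineage genes were divided too. Of 13 tested 4 were higher and 3 lower, beside 29.7% and 31.6% of all genes. The counts were 2 and 5 under library totals, and 1 and 1 with the heart transcript term. The median of 0.25 turns to -0.13 under library totals and to -0.05 with that term. Ebf1 and Ebf2, transcription factors of that lineage and others, were higher (1.20 ± 0.23 and 1.11 ± 0.15), but Ebf1 was uncalled with the heart transcript term. Gng8, a G protein subunit of immature olfactory neurons, fell from 9.26, 7.22 and 6.93 CPM to 3.91, 3.75 and 3.84 CPM (-1.02 ± 0.16).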

How the data were processed

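The deposited table holds counts, whole reads per gene that the authors did not normalize, per the file's values. Tools listed in the submitters' processing notes, with no role, are TopHat, DESeq, CASAVA 1.8 and bcl2fastq, and the build is rn4. For the counter, annotation, strand setting and multiply matching reads nothing is given in the sources used here, and overlapping and near-identical genes may share reads. Of 16832 identifiers, 16671 matched a symbol of the RefSeq table of GRCr8, which was used for names and promoters only, and the 161 others (0.510% to 0.681% of counts) were kept. The filterByExpr rule removed 6369 genes, 2758 of which were at 0 in every library.

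edgeR 4.0.16 (R 4.3.3, robust quasi-likelihood F test, TMM) was fitted to 12 libraries in 4 groups, with group as the only factor. SE is the log2 ratio divided by the square root of F. Members and lists were chosen with earlier results of these data known. Lists were described by counts and medians, and some share members, so their counts are not independent. Sesn2 is in the ATF4 regulator and p53 lists, Hmox1 in the Nrf2 and iron lists, and Birc3 in the caspase and NF-kB lists. Alternatives were DESeq2 1.42.0, limma-voom (limma 3.58.1), other scaling, filters and library sets, a replicate block, a term for heart transcripts and leaving out each replicate.

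Named genes were Hmox1, Hspa1a, Mt1, Mt2A, Slc30a1, Mki67, Fos, Ddit3 and Cdkn1a, the 12 highest and 12 lowest ratios among called genes that averaged at least 20 counts without overlap, the 6 largest rises and falls in CPM, up to 6 genes under 0.1 CPM in each control, zinc genes, and up to 4 members of each list by adjusted p. Some of these are not reported here, and further list members were named after their values were seen. Promoters were found for 179 of 216 named genes.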

Additional observations from a re-analysis of the deposited data

How the results depend on the processing

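The count of genes called against control, 6414, was 5998 to 6640 with DESeq2, limma-voom, DESeq2 size factors, other filters, all 15 libraries, the 6 libraries alone or the 200 µM libraries summed with their 24 h matches, and 5788 to 6134 without 1 replicate. It was 3942 with the term for heart transcripts, where the median SE was 0.161, and 1250 when a log2 ratio of at least 1 was also required. Against 100 µM it was 5694, 5056 to 5463 without 1 replicate, and 1023 with that size. Under library totals 14.3% of the latter calls pointed up instead of 49.1%, with a shift of -0.345, and more list members were lower in most lists. Whether libraries of equal replicate number belong together was not settled. The near-identical pairs did not all keep the number: 200 µM replicates 1, 2 and 3 matched 24 h replicates 3, 2 and 1. Deviations from the group mean of same-numbered libraries correlated at 0.16, 0.30 and 0.008 against control and 0.187, 0.118 and 0.08 against 100 µM. With libraries of another number, the highest correlation was 0.152, -0.134 and 0.111 against control. It was -0.084, 0.015 and -0.033 against 100 µM. The same number was thus the closer one in all but replicate 3 against control. The fit with a replicate block called 6799 and 6140 genes, with a median SE of 0.0807 against control.

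The uncalled Hsf1 turned from a log2 ratio of 0.01 to -0.371 under library totals, where it was called (edgeR adjusted p = 0.000488), and -0.273 with the heart transcript term, and lay between -0.044 and 0.062 without 1 replicate. Hsf2 was called lower under library totals (-0.442, edgeR adjusted p = 0.000442), turned to 0.080 with the heart transcript term and lay between -0.146 and 0.017 without 1 replicate. The cause was not tested. Depth limits genes near the floor of 3 counts, and no fold is printed for genes with so few counts in every control. A ratio is printed for Nppb, which was below that floor in control replicate 2.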

Other observations

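Some genes outside the stress responses also differed from control at 200 µM, again in the libraries whose dose and time are in doubt. In the 4 lists given here the share of called members is near or below the 61.3% of all genes or rests on few genes, and nothing is read from it. Of 12 circadian clock genes 6 were higher and 3 lower (4 and 5 under library totals, where the median turns from 0.22 to -0.15): the repressors Ciart, Cry1 and Per2 gave log2 ratios of 1.77 ± 0.11, 1.10 ± 0.09 and 0.71 ± 0.08, the activator Bmal1 0.86 ± 0.07, and Per1 and Per3 -0.51 ± 0.08 and -0.42 ± 0.10. Among 13 Kruppel-like factors 6 were higher and 3 lower, with Klf4 at 1.07 ± 0.08, Klf6 at 0.99 ± 0.08 and Klf15, a glucocorticoid-responsive member, at -2.33 ± 0.15. The median of the latter list, 0.31, turns to -0.07 under library totals, where 5 were higher and 5 lower. Of 18 growth factor receptor kinases 7 were higher and 1 lower, but 4 and 6 under library totals, where the median turns from 0.09 to -0.29. Epha2, an ephrin receptor, gave 2.78 ± 0.10, Fgfr3 1.31 ± 0.10 and Fgfr2 1.10 ± 0.09. In the Notch list 4 of 9 were higher and 2 lower, 2 were higher without control replicate 3, and 2 were higher and 4 lower under library totals, where the median turns from 0.16 to -0.22, with Notch1 at 0.92 ± 0.11 and Lfng, a glycosyltransferase that modifies Notch, at -1.13 ± 0.13.

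Nppb, the heart peptide BNP, did not go the way of the other heart genes of its list. It was at 2.18, 0.0317 and 2.67 CPM in the controls and 5.49, 4.45 and 5.26 CPM at 200 µM (1.67 ± 0.61, a call that ended under library totals, in the fit of the 6 libraries alone, with no filter on low counts, with the heart transcript term and without any 1 of the 200 µM libraries), and its log2 ratio was 1.06 without control replicate 2 and 2.27 without control replicate 3. In contrast, 11 of the 12 heart genes tested were lower and 0 were called with the heart transcript term. Il17f, a cytokine of T cells, had 1, 1 and 1 counts in the controls and 17, 15 and 33 counts at 200 µM. Naalad2, a peptidase, had 0, 0 and 1 counts and 11, 20 and 36 counts. Both were chosen for their low control counts, and no fold is given for them.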
